A study of Mus musculus with 221 samples.

Results

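A group of 10 genes was followed here that encode the proteins which recognise the 3′ end of an intron: Sf3b1, Sf3b2, Sf3b3, Sf3b4, Sf3b5 and Sf3b6 of the SF3B complex, Sf3a1 and Sf3a3 of the SF3A complex, and U2af1 and U2af2, the small and large subunits of U2AF. They were picked by symbol, 10 of the 78317 genes and 53 of the 278369 transcripts in the table, and 49 of those 53 transcripts had counts. Earlier results of the same data led to the choice, above all the Sf3b1 levels and isoform mixtures of AGM and yolk sac cells. Every Sf3b1 difference between those tissues is therefore given as a description and supports nothing.

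An intron is recognised at its 3′ end in steps. U2AF binds the run of C and T and the AG that end the intron, and the U2 particle then pairs with the branch-point adenosine upstream, held there by SF3A and SF3B. SF3B1 is the scaffold around the branch-point adenosine, and mutations in SF3B1 and U2AF1 are recurrent in human myelodysplastic blood disorders. A transcript that keeps an intron often carries an early stop codon and is then retained in the nucleus or degraded.

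The samples were single cells of mouse embryos read as full-length cDNA on a nanopore sequencer, 208 of 221 of which passed a limit of 17595 estimated counts. They came from Gfi1-GFP and Runx1b-RFP reporter mice, and no embryo or litter was named for a cell, so each group counts as 1 sample and no test was possible. Haemogenic endothelium (HE), the vessel lining from which blood cells emerge, was sorted from the aorta-gonad-mesonephros region (AGM) of E9.5 and E10.5 embryos as RUNX1+, KIT-, CDH5+, GFI1+/- cells, and from the yolk sac (YS) of E9, E9.5 and E10.5 embryos as RUNX1+, KIT+, GFI1+/-, CD31+ cells, in both cases without CD41 and CD45. The cells were untreated, carried the cluster names the study had given them from short-read data, and fell into HE-AGM (early c3 and late c4, 49 cells), HE-YSA (a1 and a2, 52 cells), HE-YSP (b2 and b3, 49 cells) and the later clusters AGM c5 (labelled HE-Hb, 21 cells), YS p1 (lympho-myeloid skewed, 17 cells) and YS p2 (erythro-myeloid skewed, 20 cells). The paper describes both single and double reporters for the yolk sac HE, and reporter genotypes were not compared here. No embryo without a reporter served as a control.

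The median total of a cell was 59311 counts for HE-AGM and 59726 for c5, against 30858 to 36709.5 in the YS populations. Apart from 3 cells described below, AGM and YS cDNA was made in separate projects. Tissue and cDNA project can therefore not be told apart between the groups, whereas each of the 3 nanopore runs held cells of every population. The sort genes did not all follow the gates: Kit, which the AGM gate excluded as a surface protein, had 218 counts in c3 and 334 in c4. Runx1, a gate in both tissues, had 87 and 155 counts there, 18 in a1, 25 in a2, 1 in b2 and 16 in b3. Itga2b, which encodes the excluded CD41, had 15 counts in c3, 57 in c4, 1 in a1, 7 in a2, 44 in b2 and 28 in b3. The 6 endothelial genes summed to 1523 CPM (counts per 1e+06 counts of the group) in HE-AGM, 839 for HE-YSA and 932 for HE-YSP, and all 6 had counts in each. Erythroid genes summed to 194, 40.7 and 29.6 CPM, and their part in the results was not tested. No pair of cells held identical values. Library names of 3 cells went against their cluster labels, 1 cell of an AGM project labelled a1 and 2 cells of the YS project named AGM and labelled a1 and a2.

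The sequences that carry the Sf3b1 and Sf3b6 results are shown first, read from the reference transcripts of GENCODE M21 (GRCm38), to which 53 of 53 member transcripts were matched by identifier and length. Sf3b1 lies on the minus strand of chromosome 1, and its positions on the chromosome are left out because the files use another annotation release. Sf3b1-203 (ENSMUST00000187500.7, 3403 nt) is annotated as a retained-intron transcript. It covers exons 1 to 11 of the 25 exons of the coding form and keeps the whole of intron 4, 1813 nt at positions 514 to 2326 of the transcript, between 2 coding exons. The start and the end of that intron follow, 5′ to 3′ on the transcript strand, with exon bases in capitals and intron bases in lower case.
Sf3b1 exon 4 and intron 4: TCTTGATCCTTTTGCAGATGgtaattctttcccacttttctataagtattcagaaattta
Sf3b1 intron 4 and exon 5: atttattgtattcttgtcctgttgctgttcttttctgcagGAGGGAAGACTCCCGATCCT
The intron begins with GT and ends with AG, and 75.7% of the stretch before its acceptor was C or T. Its GC content was 32.9% and its longest run of A was 6 bases. No other annotated gene overlapped it, and 0 of its 1783 stretches of 31 bases occurred, in the same direction, in a transcript of another gene. The reverse complement and the exon bases of Sf3b1-203 were not searched, so this does not settle where its reads come from.

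Sf3b1-208, annotated as a target of nonsense-mediated decay, has a 56-nt exon of its own inside the same intron. Sf3b6-202, 1 of the annotated retained-intron forms of Sf3b6, begins with 63 bases of intron 2. Both stretches are given in lower case because every base of them is intronic in the coding form.
Sf3b1-208 exon within intron 4: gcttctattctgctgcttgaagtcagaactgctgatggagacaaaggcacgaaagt
Sf3b6-202 first bases, from intron 2: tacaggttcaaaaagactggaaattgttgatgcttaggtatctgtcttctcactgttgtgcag

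Sf3b1 was the member with the widest range. Summed over cells it stood at 34.2 CPM in HE-AGM and 23.8 CPM in c5, against 399 in HE-YSA, 349 in HE-YSP, 311 in p1 and 386 in p2. By cluster it measured 45.9 CPM in c3 and 17.98 in c4, and between 310.7 and 408.5 CPM in the 6 YS clusters. Ranges given with a level are exact 95% Poisson intervals. Those given with a log2 ratio are exact 95% binomial intervals on the pair of counts, given their sum. Both cover counting error only, since reads are cDNA copies without molecular identifiers. The intervals of the AGM clusters did not overlap those of the YS clusters. HE-AGM was 11.7-fold lower than HE-YSA, a log2 ratio of -3.54 (-3.84 to -3.26), and 10.2-fold lower than HE-YSP, a log2 ratio of -3.35 (-3.65 to -3.06).

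**Figure D1:**
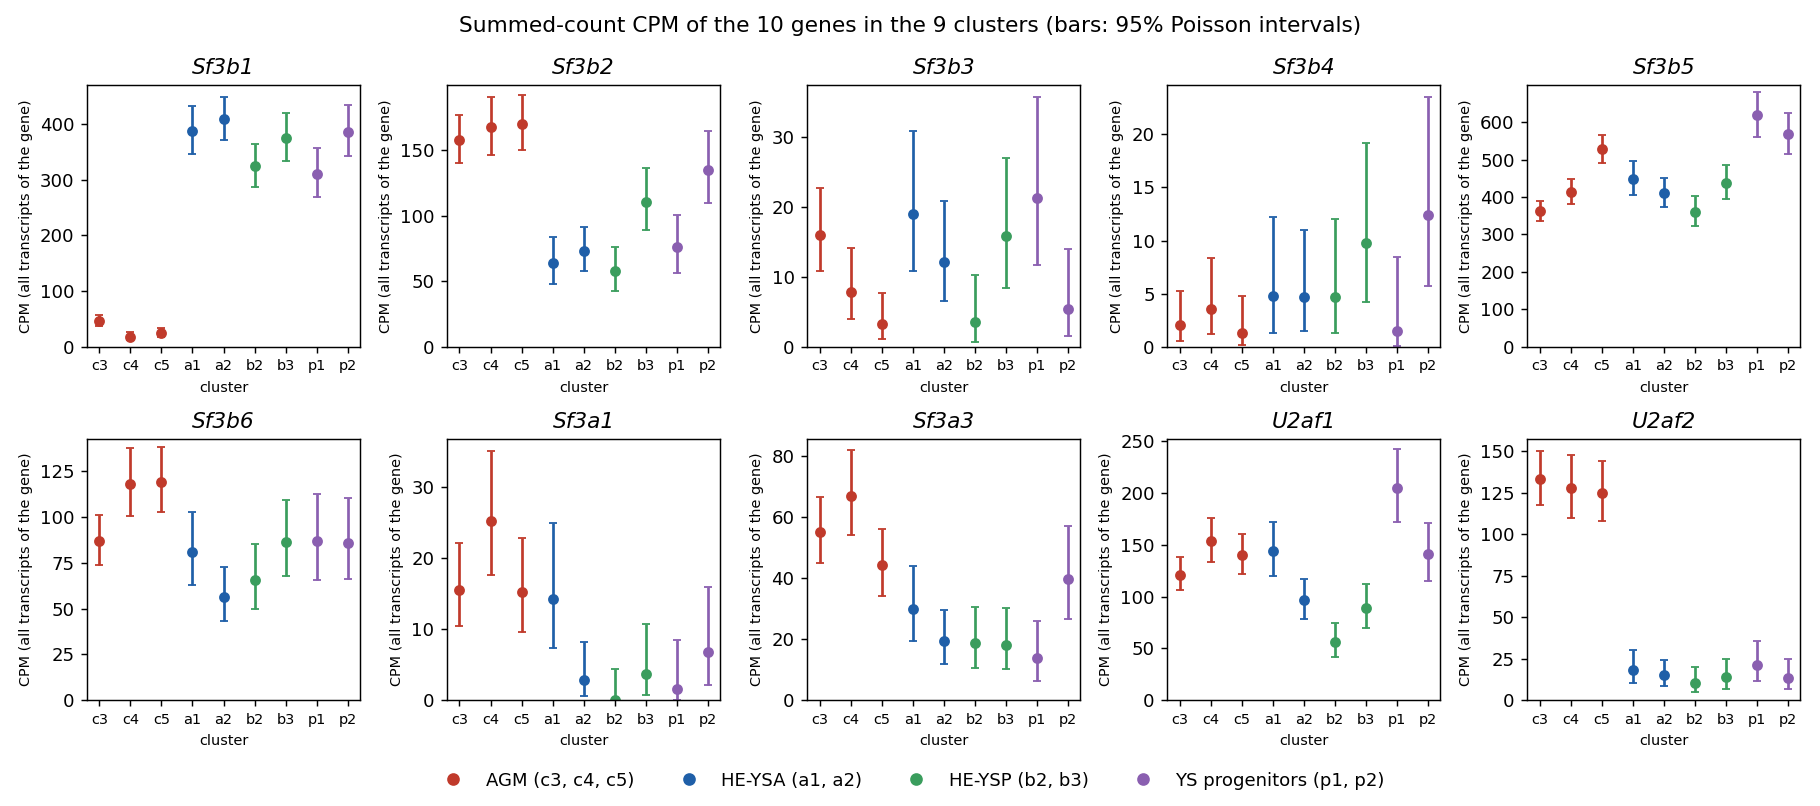
Summed CPM of each of the 10 genes in the 9 clusters, drawn in 1 panel per gene with its own linear vertical axis, as points with exact 95% Poisson intervals for counting error. Sf3b1 sits at or below 45.9 CPM in the 3 AGM clusters and at or above 310.7 CPM in the 6 YS clusters, while U2af2 is higher in the AGM clusters and Sf3b5 runs from 361 CPM in b2 to 618 CPM in p1.

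Sf3b1-203 held 89.6% of the Sf3b1 counts in HE-YSA and 92.5% in HE-YSP, but 46.5% in HE-AGM. This form had 53 counts in HE-AGM, 682 for HE-YSA and 540 for HE-YSP, or 15.9 CPM (11.9 to 20.8), 358 (332 to 386) and 323 (296 to 351). It stood at 15.9 CPM in c5, 294 in p1 and 343 in p2. All 1743 of its counts over the kept cells were in estimates within 1e-06 of a whole number. HE-AGM was 22.5-fold lower than HE-YSA in Sf3b1-203, with a log2 ratio of -4.49 (-4.92 to -4.09), and 20.3-fold lower than HE-YSP, with -4.34 (-4.78 to -3.93). In the 3 runs the first ratio was -3.81, -5.13 and -4.97, and the second was -3.35, -5.03 and -5.09.

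Single cells showed the same order. Sf3b1-203 ranged from 0 through a median of 0 to 131.9 CPM in HE-AGM, from 0 through 330.6 to 1060 CPM in HE-YSA and from 0 through 351.4 to 846.7 CPM in HE-YSP. It had at least 1 count in 17 of 49 HE-AGM cells, 51 of 52 HE-YSA cells and 47 of 49 HE-YSP cells. In the later clusters it was seen in 7 of 21 c5 cells, 17 of 17 p1 cells and 20 of 20 p2 cells. The ranges of single cells overlapped between the tissues, since the lowest YS cells were at 0, but the medians did not come close. Because AGM cells were sequenced more deeply, each cell was thinned to 18000 counts, which left out 2 cells. It was then seen in 9 of 49 HE-AGM cells (18.4%, exact binomial interval 8.76 to 32.0%), 51 of 51 HE-YSA cells and 46 of 48 HE-YSP cells.

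**Figure D2:**
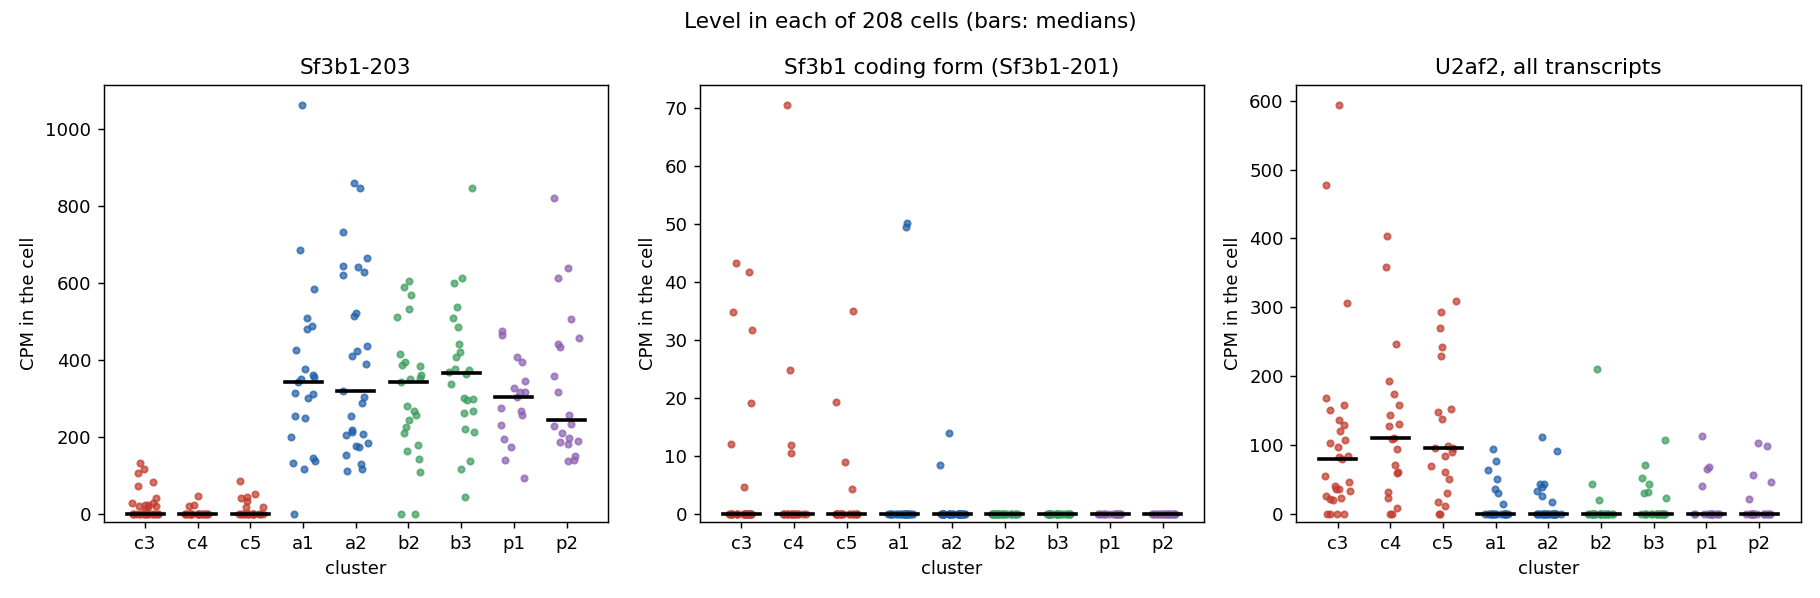
Level of Sf3b1-203, of the coding form Sf3b1-201 and of U2af2 in each of the 208 cells, in CPM on linear axes, with 1 point per cell and a bar at the median of each of the 9 clusters. HE-AGM cells (c3 and c4) have a median of 0 CPM for Sf3b1-203 and 84.3 CPM for U2af2, while HE-YSA cells (a1 and a2) have medians of 330.6 and 0 CPM, and the coding form has a median of 0 in every cluster.

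The coding form Sf3b1-201 (6195 nt) was rare everywhere. It had 24.5 estimated counts in HE-AGM, 4.5 for HE-YSA and 0 for HE-YSP, which allows up to 1.79 CPM there. HE-AGM over HE-YSA was 1.64 on the log2 scale (0.17 to 3.49), with 0.18 in run 1 and 3.07 in run 3, while run 2 held 1 count in HE-AGM and 0 in HE-YSA, too few for a ratio. Against HE-YSP the HE-AGM level was 4.10-fold higher when HE-YSP was set to the floor of 3 counts. The lower limit of that log2 ratio was 1.63. These values have a further limit: Sf3b1-201 and Sf3b1-207, a retained-intron form of 3350 nt covering exons 23 to 25, had equal estimates in 19 of 19 cells, so reads of the 3′ end were shared evenly between them. No statement on full-length coding Sf3b1 mRNA can rest on that split.

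Counted by cell, 5 of 70 AGM cells had at least 1 estimated count of both Sf3b1-201 and Sf3b1-203, 19 had Sf3b1-203 without Sf3b1-201, 6 had Sf3b1-201 without Sf3b1-203 and 40 had neither. Of the 138 YS cells, 2 had both, 133 had Sf3b1-203 without Sf3b1-201, 0 had the reverse and 3 had neither. Every cell counted for Sf3b1-201 here has the same estimate for Sf3b1-207.

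**Figure D3:**
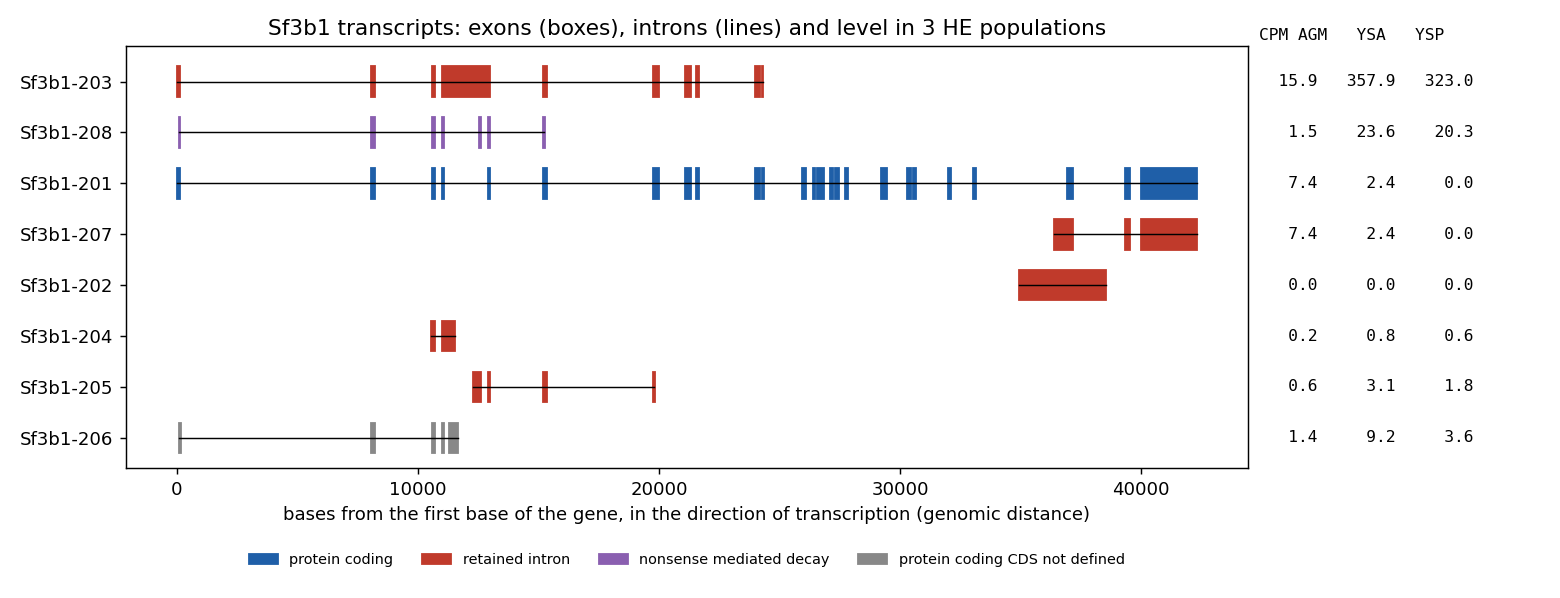
Exon structure of the Sf3b1 transcripts, drawn to scale in bases from the start of the gene, with exons as boxes coloured by annotated class and introns as lines, beside their CPM in HE-AGM, HE-YSA and HE-YSP. Sf3b1-203, whose wide box contains intron 4, stands at 15.9, 358 and 323 CPM, and the coding form Sf3b1-201 at 7.36, 2.36 and 0.

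Retained-intron transcripts together made up 70.2% of Sf3b1 counts in HE-AGM, 91.2% for HE-YSA and 93.2% for HE-YSP. By run, the HE-AGM share was 80.2, 81.8 and 59.1%, that of HE-YSA 91.1, 87.6 and 94.4%, and that of HE-YSP 90.9, 96.9 and 92.4%. The HE-AGM share therefore stayed below both YS shares in each run. With Sf3b1-207 left out of the retained forms, an alternative chosen after seeing the data, the shares were 48.7% (39.2 to 58.2%), 90.6% and 93.2%. Sf3b1-208 had 5, 45 and 34 counts, or 1.502, 23.6 and 20.3 CPM, so this second form, with only 56 bases of intron 4, was also at its lowest in HE-AGM. Sf3b1-203 also covers exons 1 to 11 of the coding form, and whether the reads counted for it cross intron 4 was not checked. The forms Sf3b1-204, Sf3b1-205 and Sf3b1-206 carry other stretches of intron 4 and had at most 17.4 counts in any HE population.

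Within the yolk sac Sf3b1-203 varied with embryonic stage and with plate. Over the 137 cells of the YS cDNA project it stood at 417 CPM at E9.0 (370 to 469), 409 at E9.5 (374 to 445) and 287 at E10.5 (268 to 307). HE-YSA cells followed this order with 698 CPM in 2 cells, 502 in 14 and 300 in 35 cells, as did p2 cells with 538, 295 and 250 CPM. HE-YSP cells did not, at 340, 392.3 and 282 CPM. Stage and plate overlapped heavily: the plates ranged from 206 CPM on a plate of E10.5 cells only to 535 CPM on a plate of E9.5 cells only. On the plate that held all 3 stages the values were 332, 202 and 301 CPM, with 3 cells at E9.5, so the order seen over all plates was not present there. Whether stage or plate moves the level was not tested. The lowest of these values still exceeded the highest summed level of an AGM cluster, 23.2 CPM in c3.

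Cells whose names went against their labels are given singly, and no other cells could cross tissue with cDNA project. The 2 YS-labelled cells with AGM in their library names and cDNA of the YS project had 22 and 14 Sf3b1-203 counts and no U2af2 count. The a1 cell of an AGM project had 3 Sf3b1-203 counts, 116 CPM, and 2 U2af2 counts, 77.2 CPM.

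The other SF3B genes moved less. Sf3b2, which contacts the pre-mRNA next to the branch site, was at 162 CPM in HE-AGM, 69.3 for HE-YSA and 83.7 for HE-YSP. It was seen in 47, 33 and 29 cells, with medians of 154.3, 52.1 and 44.5 CPM. HE-AGM over HE-YSA was 1.22 (0.95 to 1.51) on the log2 scale, with runs at 1.53, 1.51 and 0.81, and HE-AGM over HE-YSP was 0.95 (0.68 to 1.23), under 2-fold. Its YS levels were not uniform, from 57.6 CPM in b2 to 110.9 in b3 and 135.2 in p2, and the interval of p2 overlapped those of the AGM clusters at 157.8 to 170.2 CPM. Sf3b2-201 and Sf3b2-208 shared their reads evenly in 97.2% of the cells that had either, so its retained share of 51.3% in HE-AGM, 52.3% for HE-YSA and 49.3% for HE-YSP is no measure of a kept intron.

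Sf3b5, a small subunit that binds SF3B1 and SF3B3, had the smallest difference between the HE populations. It has a single annotated transcript here and stood at 384, 427 and 399 CPM in HE-AGM, HE-YSA and HE-YSP, with cell medians of 371.2, 433.9 and 381.0 CPM. Its log2 ratios were -0.15 (-0.28 to -0.03) and -0.06. It was higher in the later clusters, at 528 CPM in c5, 618 in p1 and 568 in p2. All 10 genes together reached 1040, 1149 and 1030 CPM in the 3 HE populations, and 1006, 749 and 681 CPM with Sf3b1 left out.

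Sf3b6, the p14 subunit that sits at the branch-point adenosine, differed in form more than in level. Its gene level was 99.7, 67.2 and 76.0 CPM, with log2 ratios of 0.57 (0.27 to 0.88) and 0.39. The coding form Sf3b6-204 was at 59.1, 61.1 and 71.2 CPM, and its log2 ratios were -0.05 and -0.27. The retained-intron form Sf3b6-205 had 3 counts in HE-AGM and 0 in both YS populations of HE, whereas Sf3b6-202 (455 nt) had 124 counts in HE-AGM, 37.4% of the gene (32.2 to 42.9%), against 3.52% in HE-YSA and 3.15% in HE-YSP. It made up 46.7% in c5 and 6.35% in p2. Its log2 ratio was 3.98 (2.66 to 5.74) for HE-AGM over HE-YSA and 3.96 (2.57 to 5.86) over HE-YSP, and it had at least 1 count in 25 of 49 HE-AGM cells, 14 of 21 c5 cells, and 2 cells each of HE-YSA and HE-YSP. In the 3 runs the first ratio was 2.34, 1.24 and 4.85 and the second was 4.66, 2.71 and 3.94, from at most 4.50 counts in a YS population. Only 41.6% of Sf3b6-202 counts were in whole estimates, so part of its counts come from reads divided with other forms, and its intervals are too narrow.

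The retained share of Sf3b6 was thus on the opposite side from that of Sf3b1, and it varied between runs: 25.99, 17.1 and 54.0% in HE-AGM and 31.9, 27.4 and 62.0% in c5. Run 3 held the highest share in both. In no YS population of HE did a run exceed 9.09%, but p2 reached 16.7% in run 3, from 3 of 18 counts. The form begins within intron 2 and does not cross the whole of it, so a count of Sf3b6-202 does not show that intron 2 was kept in full.

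Sf3b3 and Sf3b4 were too low to compare closely. Sf3b3, which with SF3B1 forms the core of the complex, had 42, 29 and 16 counts, and its log2 ratios were -0.27 and 0.40. Of those counts 41, 20 and 6 were of Sf3b3-205, a retained-intron form seen in 8, 8 and 4 cells. Sf3b4, the subunit with RNA recognition motifs that binds upstream of the branch site, had 9, 9.04 and 11.9985 counts and was below the limit of 50 summed counts.

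Both SF3A genes were higher in HE-AGM. Sf3a1, the largest SF3A subunit, had 65 counts in HE-AGM, 15 for HE-YSA and 3 for HE-YSP, or 19.5, 7.87 and 1.79 CPM, and was seen in 19, 4 and 1 cells. Its log2 ratio was 1.31 (0.48 to 2.23) over HE-YSA, with 1.35, 1.93 and 1.06 in the runs, and 3.44 (1.83 to 5.76) over HE-YSP, where runs 1 and 2 held no count of it. The coding form held 58, 5 and 3 of these counts, and the retained-intron form Sf3a1-203 held 7, 10 and 0. Sf3a3, the SF3A subunit that contacts the U2 particle, stood at 60.1, 24.0 and 18.5 CPM and was seen in 34, 17 and 15 cells. Its log2 ratio was 1.32 (0.85 to 1.82) over HE-YSA, with runs at 1.35, 1.15 and 1.46, and 1.70 (1.15 to 2.29) over HE-YSP. Outside HE it stood at 44.3 CPM in c5 and 39.9 CPM in p2, with overlapping intervals, and at 13.7 CPM in p1, the lowest of the 9 clusters. Sf3a3-201, a coding form, made up 96.0, 95.6 and 93.5% of its counts.

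U2af2, the large subunit that binds the C and T run before the AG, had the highest ratio in favour of HE-AGM among the members with more than 3 counts in both YS populations. It stood at 131 CPM in HE-AGM and 125 in c5, against 16.5 in HE-YSA, 12.3 in HE-YSP, 21.3 in p1 and 13.7 in p2. Single cells ranged from 0 through a median of 84.3 to 593.2 CPM in HE-AGM, and up to 111.2 CPM for HE-YSA and 210.2 CPM for HE-YSP with medians of 0. It was seen in 43 of 49, 15 of 52 and 10 of 49 cells. The cell ranges overlapped, and the highest cells of HE-YSA and HE-YSP lay above the HE-AGM median.

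The U2af2 log2 ratio was 2.98 (2.46 to 3.55) over HE-YSA, 7.91-fold, with 2.55, 4.30 and 3.02 in the runs, the second from 2 counts in HE-YSA. Over HE-YSP it was 3.42 (2.78 to 4.13), 10.7-fold, with 4.92, 1.87 and 3.65, the first from 2.5 counts in HE-YSP. By YS stage U2af2 stood at 14.6, 12.5 and 16.1 CPM from E9.0 to E10.5, from 10, 16 and 48 counts with overlapping intervals. Those intervals are too wide for a comparison with the stage differences of Sf3b1-203. The AGM level of U2af2 was 124 CPM in 43 cells of one cDNA project and 198 CPM in 5 cells of another. Those 5 cells stood at 0, 35.8, 84.3, 108.1 and 593.2 CPM, so the second value rests largely on 1 cell.

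The forms of U2af2 could be resolved only in part. The coding U2af2-201 and U2af2-208 had equal estimates in every cell that had either, and the retained-intron U2af2-205 equalled them in 97.7% of cells. Each therefore held the same 22.8% of the gene in HE-AGM. U2af2-206, a form that ends within intron 5, had 76.5 counts in HE-AGM and 0 in both YS populations of HE, but 55 of the 76.5, 71.9%, came from 1 cell and 3 cells had any. Without that cell its level was 6.66 CPM.

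U2af1, the small subunit that reads the AG, was near level in HE-AGM and HE-YSA at 135 and 117 CPM and lower in HE-YSP at 72.5 CPM. The log2 ratios of HE-AGM were 0.20 (-0.04 to 0.44) and 0.89 (0.60 to 1.19), and that of HE-YSP over HE-YSA was -0.69 (-1.03 to -0.37), all under 2-fold. The highest cluster was p1 with 204.5 CPM and the lowest was b2 with 56.3 CPM.

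The coding forms U2af1-201 and U2af1-202 use 1 each of a pair of alternative 67-nt exons, which differ at 23 of 67 bases (65.7% identity). Both are printed because the isoform shares of U2af1 turn on them, and U2af1-208 and U2af1-205 carry both exons.
U2af1-201 exon 3: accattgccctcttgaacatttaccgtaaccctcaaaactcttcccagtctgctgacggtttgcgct
U2af1-202 exon 3: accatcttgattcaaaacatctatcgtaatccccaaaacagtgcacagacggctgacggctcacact
U2af1-202 held 34.6% of the gene in HE-AGM, 47.1% for HE-YSA and 46.8% for HE-YSP, and U2af1-201 held 26.7, 21.4 and 15.1%. U2af1-208, a nonsense-mediated decay target with both exons, held 26.7, 15.6 and 12.2%, and U2af1-205 held 1.79, 6.40 and 12.2%. Only 6.12% of U2af1 counts were in whole estimates, and U2af1-201 and U2af1-208 were equal in 96.0% of cells, so these shares come from divided reads and their intervals are too narrow.

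A gene was called when it had at least 50 summed counts over a pair of populations, a ratio of at least 2-fold and the same side in each of the 3 runs. Between HE-AGM and HE-YSA 9 members could be tested in this sense, and Sf3b2, Sf3a1, Sf3a3 and U2af2 were called higher in HE-AGM and Sf3b1 lower. Among all 8968 genes 24.5% were called higher in HE-AGM and 10.4% lower. Between HE-AGM and HE-YSP 9 members were tested, of which Sf3a1, Sf3a3 and U2af2 were called higher and Sf3b1 lower, where 27.2% of 8803 genes were called higher and 12% lower. These contrasts led to the choice of members, and both share the HE-AGM cells, so nothing is read from the counts. The median log2 ratio of the members tested was 0.57 over HE-YSA and 0.89 over HE-YSP, beside 0.26 and 0.31 over all genes. Between HE-YSP and HE-YSA 0 of 7 members were called, where 4.48% of 6587 genes were called higher and 5.06% lower.

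**Figure D4:**
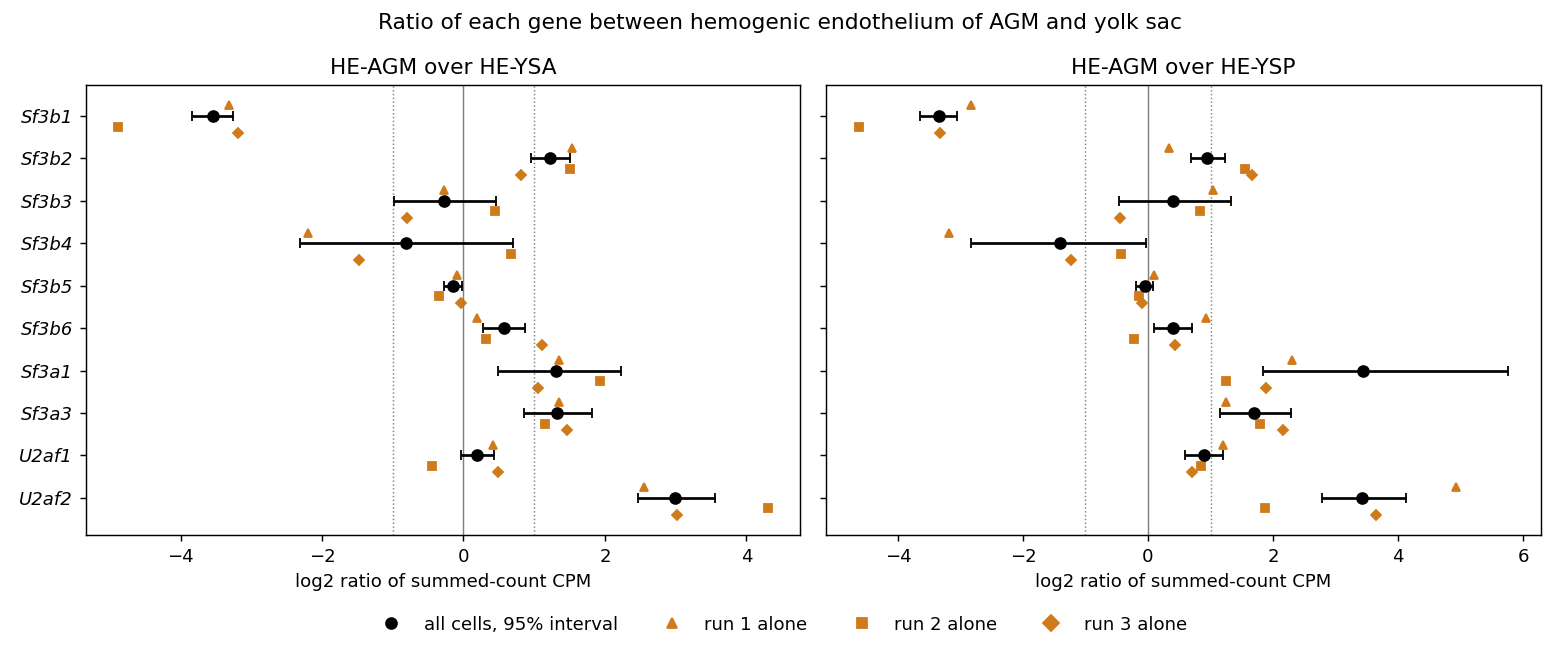
log2 ratios of summed CPM for the 10 genes in HE-AGM over each YS population of HE, with a black point and its 95% counting interval for all cells and an orange symbol for each of the 3 nanopore runs, where a run with no count is set to the floor of 3 counts and dotted lines mark 2-fold. Sf3b1 lies between -4.88 and -2.82 in every run, and U2af2 between 1.87 and 4.92.

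In isoform fractions 4 members, Sf3b1, Sf3b2, Sf3b6 and U2af1, had the 100 counts needed in each HE population. Against HE-YSA 2 of them, Sf3b1 and Sf3b6, had a transcript whose share shifted by over 10 points on the same side in each run, where 49.4% of 1977 genes did. Against HE-YSP 3 did, with U2af1 added through U2af1-208 and U2af1-205, where 45.9% of 1750 genes did. Between HE-YSP and HE-YSA 0 of 4 did, where 9.80% of 1664 genes did. For the retained-intron share alone, Sf3b1 was over 10 points higher in HE-YSA and in HE-YSP, as were 5.94% and 5.18% of genes, and Sf3b6 was higher in HE-AGM in both comparisons, as were 8.20% and 7.74%.

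**Figure D5:**
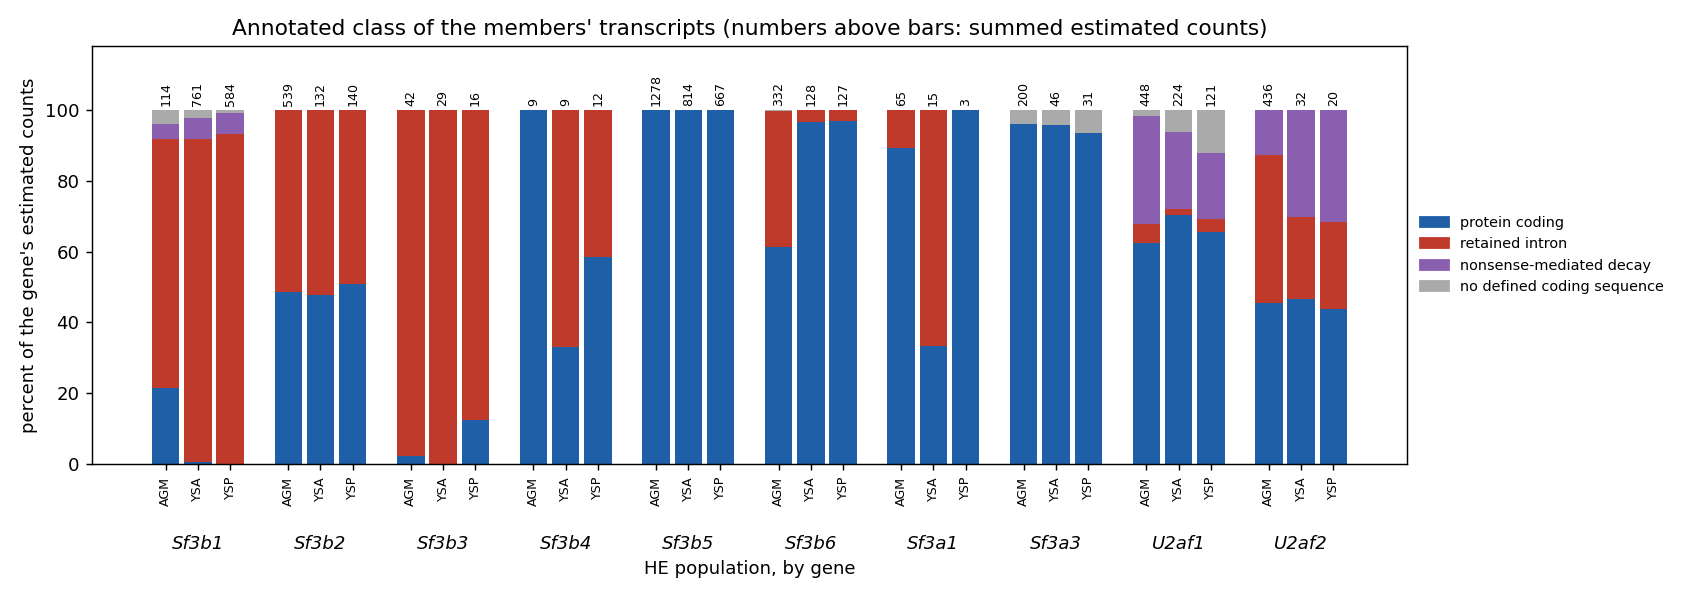
Share of each gene's summed counts, in percent, held by transcripts annotated as protein coding, retained intron, nonsense-mediated decay or without a defined coding sequence in HE-AGM, HE-YSA and HE-YSP, with the gene's summed counts above each bar. Retained-intron forms hold 70.2, 91.2 and 93.2% of Sf3b1 and 38.3, 3.52 and 3.15% of Sf3b6.

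Of 18 further genes of the branch site listed beside the members, 17 were tested in each AGM comparison. Called higher in HE-AGM were 5 over HE-YSA and 6 over HE-YSP, where 24.5 and 27.2% of all genes were, and 0 were called lower, where 10.4 and 12% of all genes were, with median log2 ratios of 0.38 and 0.47. Sf3a2, the SF3A subunit not among the members, was at 205 CPM in HE-AGM, 30.96 for HE-YSA and 50.2 for HE-YSP, with log2 ratios of 2.72 and 2.03. Dhx15, a helicase that takes spliceosomes apart, was at 177, 83.4 and 77.2 CPM. Phf5a, the SF3B subunit that lines the branch-point pocket with SF3B1, was at 35.4, 17.2 and 16.4 CPM, and Ddx42, a helicase that binds SF3B1, at 27.9, 10.496 and 10.8 CPM. Cherp was called only over HE-YSA, and Ddx46 and Smndc1 only over HE-YSP, and the difference between those comparisons was not tested. Others stood near level, among them the U2AF-related Puf60 with log2 ratios of 0.02 and -0.13, U2af1l4 with 0.01 and -0.32 and Rbm39 with 0.04 and 0.16. Snrpb2, a U2 particle protein, lay furthest to the YS side among the genes tested, with log2 ratios of -0.93 and -0.88. Between HE-YSP and HE-YSA 0 of 15 were called.

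Early and late clusters of 1 lineage are set side by side without a call. Along c3, c4 and c5, Sf3b1-203 stood at 23.2, 5.75 and 15.9 CPM and U2af2 at 133, 128 and 125 CPM. Along a1, a2 and p1 they stood at 358, 358 and 294 CPM and at 18.4, 15.02 and 21.3 CPM, and along b2, b3 and p2 at 298.5, 348.4 and 342.7 CPM and at 10.6, 14.01 and 13.7 CPM. The AGM and YS values of both stayed apart at each step. Sf3b4 was the gene whose level was highest in p2, at 12.4 CPM from 9.09 counts, and Sf3a1 had no count in b2.

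The genes whose levels over the 9 clusters were most like Sf3b1-203, on a log2(CPM + 1) scale and among 9140 genes, were Gm9625 (Pearson r = 0.997), Gm15590 (0.995), Gm6440 (0.992), Ftl2-ps (0.991) and Gm38247 (0.991). All 5 are annotated as processed pseudogenes. Gm9625 stood at 20.1 to 44.4 CPM in the AGM clusters and at 544 to 662 CPM in the YS clusters. The 9 points share libraries, depth and cDNA project within each tissue, and 409 genes had an r above 0.9, so the likeness is a description.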

How the data were processed

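Single mouse cells were converted to cDNA by the Smart-seq2 protocol and read on a nanopore sequencer in 3 runs. After basecalling and trimming (bbduk), the authors filtered out chimeras (YACRD, porechop), mapped the rest against GENCODE transcripts with minimap2 (2.26 in the submitters' processing notes), keeping up to 10 alignments per read, and estimated transcript abundance with NanoCount. The deposited values are estimated counts that are not normalized, and a read that fits several transcripts is divided between them, so transcripts with shared ends can receive equal estimates. The authors' later normalization with DESeq2 1.40.2 in R 4.3.0 is not in these values.

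Cells with totals below 17595 estimated counts, 1 scaled MAD below the median of 38780, were left out. Counts were summed over the cells of a cluster or population and divided by its total to give CPM, with exact Poisson intervals. Ratios have exact binomial intervals on the pair of counts, given their sum. Shares have exact binomial intervals on the same sums, and all intervals are at 95%. Non-whole counts entered the intervals as they were. Depth sets the precision: a count of 0 allows up to 3 counts, the 1-sided limit at 95%. Each cell is 1 sample with no embryo named, which makes each group 1 sample, so nothing was tested and standard errors are not given. Where a population had no count, its log2 ratio was taken against 3 counts. The rule for calls was applied to all genes, and its script was checked on simulated data. The work was done with matplotlib 3.10.9, pandas 2.3.3, scipy 1.17.1, numpy 2.4.6 and Python 3.11.15, and with DESeq2 1.42.0 in R 4.3.3 for the size factors of 1 alternative.

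All 10 genes are named. Transcripts were to be named if they held at least 10% of the gene in an HE population. Some that met this are not given, among them forms of Sf3b2, Sf3b3, Sf3b4 and U2af2. Also named are the listed branch-site genes called against both YS populations. So are the 5 genes of at least 20 CPM in a cluster whose levels follow Sf3b1-203 most closely over the 9 clusters. Other transcripts, and listed genes called in 1 comparison or near level, were named after their values were seen. The members and all lists were chosen with earlier results of these data known. The alternatives covered the filter on cells, size factors, equal weights for cells, thinning, bounds on totals, single runs, leaving out runs, YS cells of E10.5, leaving out the 3 cells with contrary names and dropping estimates under 1 count.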

Additional observations from a re-analysis of the deposited data

Results flagged for a closer look

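Sf3b1-203 was also counted in cells that the limit on totals left out of every comparison. The 5 such HE-YSA cells held 9 counts (289 CPM, in 2 cells), the 4 HE-YSP cells held 21 counts (640 CPM, in 2 cells) and the 1 p1 cell held 10 counts (581 CPM). Each is above the 3 counts that a count of 0 allows. The 1 p2 cell held 3 counts, and the 2 HE-AGM cells left out held 0, but they had only 282 counts in all.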

How the results depend on the processing

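Of 809 values recomputed under an alternative, 729 stayed within the limit set for them, 80 moved by more and 0 changed sign where called. For ratios and retained shares the limit was the standard deviation over the single runs, which are themselves among the alternatives. For counts of called members and shares of all genes it was a fixed fold. Of 144 ratios of called members, 142 remained past 2-fold; the others were Sf3b2 in HE-AGM over HE-YSA in run 3 alone (0.81) and Sf3a1 there with totals of 30000 to 60000 counts (0.93), a bracket without HE-AGM cells of run 3. The log2 ratio of Sf3b1-203 was -3.35 over HE-YSP in run 1 alone, and over all alternatives it ranged from -5.13 to -3.81 over HE-YSA and from -5.09 to -3.35 over HE-YSP. Members called higher over HE-YSP numbered 5 with YS cells of E10.5 only and 5 with only estimates of at least 1 count, against 3, because Sf3b2 (1.05 and 1.03) and U2af1 (1.33 and 1.09) joined. The E10.5 setting did not match stage between the tissues, since a stage was named for only 1 HE-AGM cell. In HE-YSP over HE-YSA, 1 member was higher in run 1 alone (Sf3b2, 1.20), and 1 was lower after thinning, in run 2 alone, without run 3 and at E10.5 only (U2af1, -1.08, -1.29, -1.06 and -1.07). The retained share of Sf3b1 was 48.7% in HE-AGM without Sf3b1-207, 87.6% in HE-YSA and 96.9% in HE-YSP in run 2 alone. The ratio of Sf3b6-202 over HE-YSA ranged from 1.24 in run 2 alone to 5.38 without run 2, was 1.88 with totals of 30000 to 60000 counts and 2.89 without run 3, and its ratio over HE-YSP ranged from 2.71 to 4.78. The retained share of Sf3b6 in HE-AGM was 22.5% without run 3 and 14.1% with those totals. The causes were not tested. Without the cell with the most counts of the gene in each population of the pair, the ratio of Sf3a1 over HE-YSA was 2.04 and U2af2 had 3.02 and 3.82. The YS side lost its top cell too, so these values do not show what the top HE-AGM cell adds. With 200 summed counts per gene the share of all genes called between HE-YSP and HE-YSA was 1.74% higher and 2.37% lower. No paired analysis was possible because each group is 1 sample and no result comes from a test; the runs, which hold cells of every population, are compared one by one in the ratios. Depth limits Sf3b3, Sf3b4, Sf3a1 in YS cells and the coding form of Sf3b1.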
